A study of Rattus norvegicus with 16 samples.

Results

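The interleukin-1 family genes described here are Il1a, Il1b, Il1rn, Il1r1, Il1r2, Il18 and Casp1, and they were read in rat lung. They were chosen by name, with earlier results of these data known. Every probe set annotated to 1 of them was taken, which gave 9 probe sets for the 7 genes out of 15866 probe sets and 10411 named genes on the array. Of these, 5 probe sets of 4 genes (Il1a with 2, and Il1b, Il18 and Casp1) were bright enough to be tested among the 11106 probe sets kept. The 4 probe sets of Il1rn, Il1r1 and Il1r2 were among the dimmest 30%.

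The 4 groups were spontaneously hypertensive (SH) rats exposed to sulfur dioxide (SO2), SH rats kept in air, Sprague Dawley (SD) rats exposed to SO2 and SD rats kept in air. Each group had 4 arrays of lung total RNA, which the design text calls biological replicates. SH is an inbred strain with high blood pressure, SD is an outbred stock without it, and SO2 is an irritant gas, so the strains differ in more than blood pressure. The sources used here give no SO2 dose, no length of exposure, no time of sampling, and neither the age nor the sex of the rats.

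Interleukin-1 is a family of inflammatory messengers made early after tissue injury. Interleukin-1 alpha (Il1a) and beta (Il1b) act on the same signalling receptor (Il1r1), while the receptor antagonist (Il1rn) occupies that receptor without signalling and the decoy receptor (Il1r2) captures the ligands. Interleukin-1 beta and interleukin-18 (Il18) are made as inactive precursors, which caspase-1 (Casp1) cuts in protein complexes called inflammasomes. In the lung, macrophages, neutrophils and epithelial cells are known sources, and interleukin-1 signalling is known for drawing in neutrophils.

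The stretches of 250 bases before the start of the 3 ligand genes are shown because Il1b is the member the results turn on, Il1a is its neighbour on chromosome 3 with no such difference, and Il18 is the ligand with the next largest difference. They come from RefSeq on build GRCr8, which held 6 of the 7 genes, and read 5′ to 3′ along the strand of the gene. Il1b lies on the minus strand with its window at chr3:137036582-137036831, Il1a on the minus strand at chr3:136990018-136990267, and Il18 on the plus strand at chr8:59801822-59802071. Capitals mark the matches to a motif.
Il1b: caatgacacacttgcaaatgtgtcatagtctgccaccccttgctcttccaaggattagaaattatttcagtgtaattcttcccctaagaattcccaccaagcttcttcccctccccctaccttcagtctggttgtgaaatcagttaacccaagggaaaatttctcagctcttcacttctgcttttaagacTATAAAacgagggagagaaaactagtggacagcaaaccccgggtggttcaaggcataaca
Il1a: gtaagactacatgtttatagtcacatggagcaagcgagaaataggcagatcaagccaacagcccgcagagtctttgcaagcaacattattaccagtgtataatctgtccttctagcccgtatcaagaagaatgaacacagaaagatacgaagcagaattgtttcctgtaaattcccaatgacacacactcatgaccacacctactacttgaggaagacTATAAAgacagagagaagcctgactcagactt
Il18: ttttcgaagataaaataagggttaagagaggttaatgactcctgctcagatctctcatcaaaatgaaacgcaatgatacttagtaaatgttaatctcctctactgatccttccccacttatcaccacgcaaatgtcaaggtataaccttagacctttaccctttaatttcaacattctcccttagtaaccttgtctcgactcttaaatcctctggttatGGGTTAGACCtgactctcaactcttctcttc
In Il1b the letters TATAAA, the core of a TATA box, stood 60 to 55 bases before the start, and in Il1a they stood 32 to 27 bases before it. Of 33469 rat promoters read over the same length, 8.06% held TATAAA on the strand of the gene. Il18 had no TATAAA and held a match to an NF-kB-type motif (GGG, any 5 bases, then CC, searched on both strands) at 31 to 22 bases before the start; 42.3% of promoters held one. None of the 6 promoters read, those of Il1b and Il1a included, matched the C/EBP-type motif TTGCNNAA on either strand, which 9.22% of promoters held. A match describes the letters and not binding.

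The arrays were alike in scale, with median signals between 250.2 and 281.8, and 0 of 120 pairs were identical. All 11 lung markers on the array, such as the surfactant gene Sftpc, exceeded the 10th percentile of every array. Their summed signal was 182108 on SD SO2 replicate 4, against 129516 to 147014 on the other arrays. A check of strain used 79 probe sets that separated SH from SD rats on the SO2 arrays alone. In air, 64 to 74 of them lay nearer the SH level on the SH arrays and 6, 8 and 15 on SD replicates 1, 3 and 4. On the library labelled SD air with number 46 in its title, called SD air replicate 2 here, 61 did. That library went against its label, so differences that use the SD air group are given again without it. It was picked for its SH-like values, so leaving it out tends by itself to widen differences between SH and SD rats.

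Il1b, the gene of the secreted inflammatory cytokine, was the member that differed between groups. Its signal (linear intensity, probe set 1398256_at) was 697.4, 772.4, 1222.4 and 916.1 in SH rats in SO2. It was 536, 666.9, 454 and 385.2 in SH rats in air, 344.4, 354.9, 465.3 and 386.7 in SD rats in SO2, and 538.9, 513.3, 400.9 and 393.1 in SD rats in air. All 4 arrays of SH rats in SO2 thus lay above all 12 others, and the remaining groups overlapped one another.

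In SO2, the mean Il1b signal of SH rats was 902 ± 232, against 388 ± 54.7 in SD rats (mean ± standard deviation, n = 4 each, as throughout). The difference was 1.16 on the log2 scale (standard error, SE, 0.184; 95% interval 0.78 to 1.55), or 2.24-fold, and it passed the test with a limma adjusted p of 0.00235. It was rank 20 by p among the 11106 probe sets. Of the 5 member probe sets tested, 1 passed in this comparison, against 0.81% of all probe sets tested, and 1 had groups that did not overlap, against 5.58% of all. At an unadjusted p under 0.05 there were 2 members (Il1b and Il18), against 10.1% of all. Averaged over both exposures, Il1b was 0.64 higher in SH than in SD rats (SE 0.13; 95% interval 0.37 to 0.92; adjusted p = 0.0110). That average was again passed by 1 of 5, against 1.53% of all probe sets, with the same 1 at an unadjusted p under 0.05, against 11.6% of all. Without SD air replicate 2 it was 0.67 (adjusted p = 0.00906). The call for the average ended when the number in the sample titles was added as a covariate (0.61, adjusted p = 0.0922).

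Within SH rats, Il1b was 902 ± 232 in SO2 and 511 ± 121 in air, a log2 difference of 0.80 (SE 0.184; 95% interval 0.41 to 1.18). It was rank 5 of 11106 by p, but its limma adjusted p was 0.402, so it did not pass. In this comparison 0 of 5 member probe sets passed, as did 0% of all probe sets. At an unadjusted p under 0.05 there were 2 members (Il1b and Il18), against 4.84% of all, and the groups of the same 2 did not overlap, against 4.17% of all. The numbers in the sample titles ran from 40 to 43 for SH rats in air and were 44 and 51 to 53 for SH rats in SO2, so their order and the exposure cannot be told apart.

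Within SD rats, Il1b was 388 ± 54.7 in SO2 and 462 ± 75.3 in air, a log2 difference of -0.24 (SE 0.184; 95% interval -0.62 to 0.15; adjusted p = 0.759). Without SD air replicate 2 it was -0.18 (adjusted p = 0.858). Of the 5 member probe sets, 0 passed, as did 0% of all, 0 reached an unadjusted p under 0.05, against 8.24% of all, and 0 had groups that did not overlap, against 3.54% of all.

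The SO2 effect on Il1b was 1.04 larger on the log2 scale in SH than in SD rats (SE 0.26; 95% interval 0.49 to 1.58), rank 8 by p, and this difference between the strains' responses did not pass (adjusted p = 0.959). Without SD air replicate 2 it was 0.98 (adjusted p = 0.810). The interaction was passed by 0 of 5 members and 0% of all probe sets, and reached an unadjusted p under 0.05 for 1 member (Il1b) and 4.65% of all. For SO2 over air averaged over strains, Il1b stood at 0.28 (adjusted p = 0.575), and at 0.31 (adjusted p = 0.616) without SD air replicate 2, again with 0 of 5 members and 0% of all passing, and with 1 member (Il1b) and 8.45% of all at an unadjusted p under 0.05.

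In air, Il1b was 511 ± 121 in SH rats and 462 ± 75.3 in SD rats, a log2 difference of 0.13 whose 95% interval ran from -0.26 to 0.51 (adjusted p = 0.957). Without SD air replicate 2 the difference was 0.18 (adjusted p = 0.851). In this comparison 0 of 5 members passed, as did 0% of all, 0 reached an unadjusted p under 0.05, against 6.38% of all, and 0 had groups that did not overlap, against 4.02% of all. From highest to lowest mean the order was SH in SO2, SH in air, SD in air and SD in SO2, and the last 3 neighbours did not differ beyond their spread.

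**Figure D1:**
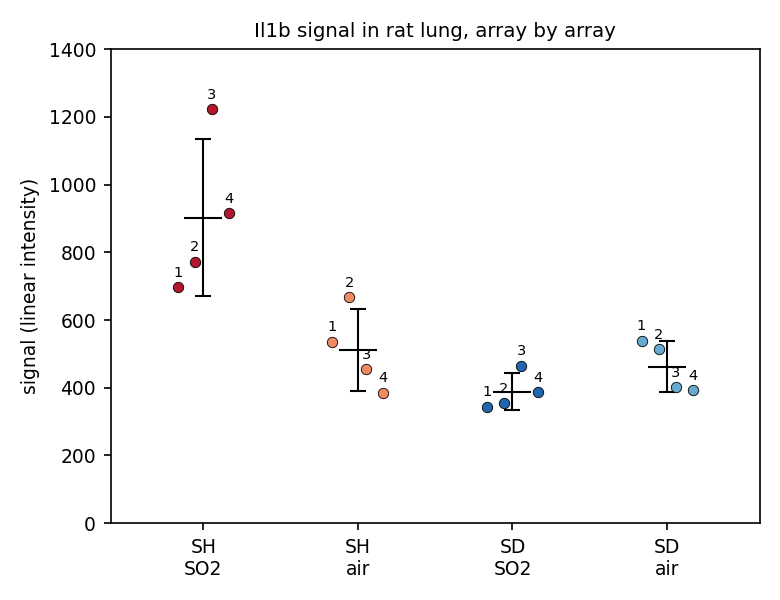
Il1b signal (linear intensity, vertical axis) on each array by group, with the replicate number beside each point and bars for the mean ± standard deviation (n = 4). The 4 arrays of SH rats in SO2 sit between 697.4 and 1222.4, above all others, and SD rats in SO2 average lowest.

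In bulk lung RNA, fewer cells of a type and less RNA per cell cannot be told apart. Neutrophils are one known source of Il1b RNA, and their markers were read on the same arrays. Summed over the 8 of 15 listed markers on the array, their signals ran from 3306.1 to 4086.8 in SH rats in SO2, 3222 to 4044.9 in SH rats in air, 1527.1 to 3303.2 in SD rats in SO2 and 1652.2 to 4152.7 in SD rats in air, and no marker was at 0. The 4152.7 belonged to SD air replicate 2.

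S100a8, a calcium-binding protein of neutrophil granules and cytoplasm, had signals of 508.7, 307, 290.9 and 382 in SH rats in SO2, against 211.7, 93, 210.1 and 178 in SD rats in SO2 (1.06, SE 0.393, adjusted p = 0.288). Its partner S100a9 differed by 0.89 (adjusted p = 0.314) between the same groups. Fcgr3a, a receptor for antibodies on neutrophils and macrophages, stood at 0.56 (adjusted p = 0.310), Cxcr1 and Cxcr2, the receptors for neutrophil-attracting chemokines, at 0.31 and 0.24, and Mmp8, the neutrophil collagenase, at -0.42. So 5 of the 6 neutrophil markers tested stood above 0 for SH over SD in SO2, and 3 reached an unadjusted p under 0.05, against 10.1% of all probe sets. At the same limit there were 2 in air, against 6.38% of all, and 4 averaged over exposures, against 11.6% of all. Without SD air replicate 2, 4 were higher and 1 lower in air, against 9.72% of all. Averaged over exposures, 4 were higher and 0 lower without that array, against 12.9% of all.

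With all 16 arrays, 0 of the 6 neutrophil markers passed in any of the 7 comparisons, against at most 1.53% of all probe sets. With the other 15 arrays, leaving out SD air replicate 2, 1 passed for SH over SD in air (Cxcr1), against 0.774% of all probe sets. Averaged over exposures 3 passed (S100a8, Cxcr1 and Fcgr3a, all higher in SH rats), against 2.49% of all. That array was left out for its SH-like values, a choice that favours such differences between strains. Within SH rats, for SO2 over air, 3 of the 6 stood above 0 and 0 reached an unadjusted p under 0.05, against 4.84% of all probe sets. There S100a8 stood at 0.11 (adjusted p = 0.982), S100a9 at 0.16 (adjusted p = 0.975) and Cxcr2 at 0.35, while Cxcr1 stood at -0.47, Mmp8 at -0.39 and Fcgr3a at -0.050. Between strains in air, S100a8 stood at 0.96 (adjusted p = 0.683), and at 1.42 (adjusted p = 0.0571) without SD air replicate 2.

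The 10 of 17 listed macrophage markers on the array summed to between 38394.0 and 43537.4 in SH rats in SO2 and between 40000.5 and 42831.5 in SH rats in air. The sums were 39135.2 to 52354.5 in SD rats in SO2, the highest on replicate 4, and 41310.9 to 45265.1 in SD rats in air. Lyz2 alone made up 73.5% of the mean sum. The other 9 summed to between 9514.9 and 11793.8 in SH rats in SO2, 11548.9 and 14240.3 in SH rats in air, 9289.9 and 11503.0 in SD rats in SO2, and 7934.7 and 12905.4 in SD rats in air. Of the 8 tested, 0 passed in any comparison, with or without SD air replicate 2, against at most 1.53% and 2.49% of all probe sets. For SH over SD in SO2, 2 of the 8 stood above 0, and the median log2 difference of the 8 was -0.071. Cd14, the lipopolysaccharide co-receptor, stood at 0.69 there (adjusted p = 0.189), and it passed in 2 of 25 other settings. Cd68, a macrophage lysosomal protein gene, stood at -0.32 there with groups that did not overlap, against 5.58% of all probe sets. For SO2 over air in SH rats, Cd68 stood at -0.37 and Gpnmb, a membrane glycoprotein of macrophages, at -0.56 (adjusted p = 0.949 for both). The groups of both did not overlap, as was so for 4.17% of all probe sets. Of the 8, 2 were lower and 0 higher at an unadjusted p under 0.05, against 2.4% and 2.44% of all. In that comparison 2 of the 8 stood above 0, and the median of the 8 was -0.076, against 0.017 over all probe sets. The part of neutrophils or macrophages in the Il1b signal was not tested. The ratio of 3′ to 5′ actin probe sets was 2.14 ± 0.77 in SH rats in SO2 and 1.91 ± 0.689 in SD rats in SO2. In air it averaged lower in both strains, at 1.78 ± 0.40 in SH and 1.53 ± 0.161 in SD rats. The highest ratio of any array, 3.12, was on SH SO2 replicate 1. With that ratio and each array's 10th percentile as covariates, Il1b was 1.21 higher in SH than in SD rats in SO2 (adjusted p = 0.00261).

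Il1a, the ligand held inside cells and released on damage, had no difference that passed the test. Its brighter probe set, 1368592_at, read 244.9, 285.1, 405.7 and 210.3 in SH rats in SO2, against 297, 307.7, 307 and 249.5 in SH rats in air. It read 257, 261, 240.4 and 349.3 in SD rats in SO2, against 299.7, 236.7, 243.9 and 413.8 in SD rats in air. All groups overlapped, with the highest array in SD air and the lowest in SH SO2.

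The log2 difference of that Il1a probe set was -0.053 for SO2 over air in SH rats (95% interval -0.47 to 0.37) and -0.083 in SD rats (-0.50 to 0.34). For SH over SD rats it was 0.020 in SO2 (-0.40 to 0.44) and -0.0091 in air (-0.43 to 0.41). It was, without SD air replicate 2, -0.18 for SO2 over air in SD rats and -0.10 for SH over SD in air. The second Il1a probe set, 1371170_a_at, ran from 92.2 to 234.1 over the 16 arrays and stood at -0.049 in SH and -0.099 in SD rats for SO2 over air, the second of which was -0.059 without SD air replicate 2. Its intervals were wider, from -0.64 to 0.54 in SH rats, and the Pearson r of the 2 probe sets over 16 arrays was 0.49, and 0.55 without SD air replicate 2.

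Il18, the ligand that drives interferon-gamma production, lay lower in SH rats in SO2 without passing the test. Its signals were 407.1, 665.2, 554.3 and 617.8 in SH rats in SO2, against 756.6, 670.3, 775.3 and 790.3 in SH rats in air. They were 828, 694.3, 702.6 and 634.3 in SD rats in SO2, against 860.6, 742.9, 682 and 530.2 in SD rats in air. The SH arrays in SO2 all lay below those in air, with the nearest at 665.2 and 670.3, while the SD groups overlapped.

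In SH rats Il18 averaged 561 ± 112 in SO2 and 748 ± 53.7 in air, a log2 difference of -0.42 (SE 0.157; 95% interval -0.75 to -0.096; adjusted p = 0.949). Without SH SO2 replicate 1, the lowest array, it was -0.28. In SD rats Il18 averaged 715 ± 81.4 in SO2 and 704 ± 138 in air (0.036; 95% interval -0.29 to 0.36), and 0.068 without SD air replicate 2. The SO2 effects of the strains differed by -0.46 (adjusted p = 0.981), and by -0.49 (adjusted p = 0.841) without SD air replicate 2. Between SH and SD rats in SO2 the difference was -0.36 (adjusted p = 0.424), and -0.22 without SH SO2 replicate 1.

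Casp1, the protease that matures interleukin-1 beta and interleukin-18, had the smallest standard error (0.141) of the 5 tested probe sets and no difference that passed. Its signals were 1056.1, 741.5, 1048.3 and 814.3 in SH rats in SO2, against 960.1, 921.3, 821.7 and 1066 in SH rats in air. They were 1021.8, 859.3, 868.3 and 1019.7 in SD rats in SO2, against 1158.8, 791.4, 972.7 and 1048.6 in SD rats in air. All groups overlapped. The log2 differences were -0.052 for SO2 over air in SH rats (95% interval -0.35 to 0.24) and -0.066 in SD rats (-0.36 to 0.23). Between SH and SD rats they were -0.053 in SO2 (-0.35 to 0.24) and -0.067 in air (-0.36 to 0.23). Without SD air replicate 2, its lowest SD air array, Casp1 stood at -0.17 both for SO2 over air in SD rats and for SH over SD in air (adjusted p = 0.774 in air).

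Among the genes that hold interleukin-1 in check, Il1rn, the receptor antagonist, was the dimmest member. Its signals were 22.5, 38.7, 36.6 and 23.9 in SH rats in SO2, 25.2, 24.5, 37.2 and 30.7 in SH rats in air, 29.1, 17.9, 24.4 and 29.9 in SD rats in SO2, and 16.1, 24.3, 17.9 and 32.7 in SD rats in air. It exceeded its array's 10th percentile on 12 of 16 arrays, and all groups overlapped.

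Il1r2, the decoy receptor, read 37.4, 50.8, 90.5 and 71.2 in SH rats in SO2, against 80.2, 59.4, 14.1 and 10 in SH rats in air. It read 17.6, 42.9, 7.2 and 38.4 in SD rats in SO2, against 94.1, 74.6, 65.8 and 20 in SD rats in air, and it exceeded the 10th percentile on 11 of 16 arrays. All groups overlapped, and arrays of 1 group lay far apart. With all 15866 probe sets tested, its log2 difference was 0.64 for SO2 over air in SH rats (SE 0.451) and -0.89 in SD rats (adjusted p = 0.716). The difference between these effects was 1.53 (SE 0.637; 95% interval 0.19 to 2.86) and did not pass (adjusted p = 0.999). These were -0.79 in SD rats (adjusted p = 0.774) and 1.43 between the effects (adjusted p = 0.882) without SD air replicate 2.

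Il1r1, the signalling receptor, has 2 probe sets, which exceeded the 10th percentile on all 16 arrays. The first, 1369255_at, ran from 81.9 to 144.3 in SH rats in SO2, 87 to 150.5 in SH rats in air, 105 to 150.5 in SD rats in SO2 and 55.3 to 148.9 in SD rats in air. The second, 1370750_a_at, ran from 59.4 to 130.3 in SH rats in SO2, 71.9 to 100.2 in SH rats in air, 70.8 to 130.4 in SD rats in SO2 and 74.9 to 162.6 in SD rats in air. All groups overlapped in both. With all probe sets tested, 0 of the 4 dim probe sets passed in any comparison, with or without SD air replicate 2. Of the 11106 brighter probe sets, at most 1.53% and 2.49% passed in a comparison.

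**Figure D2:**
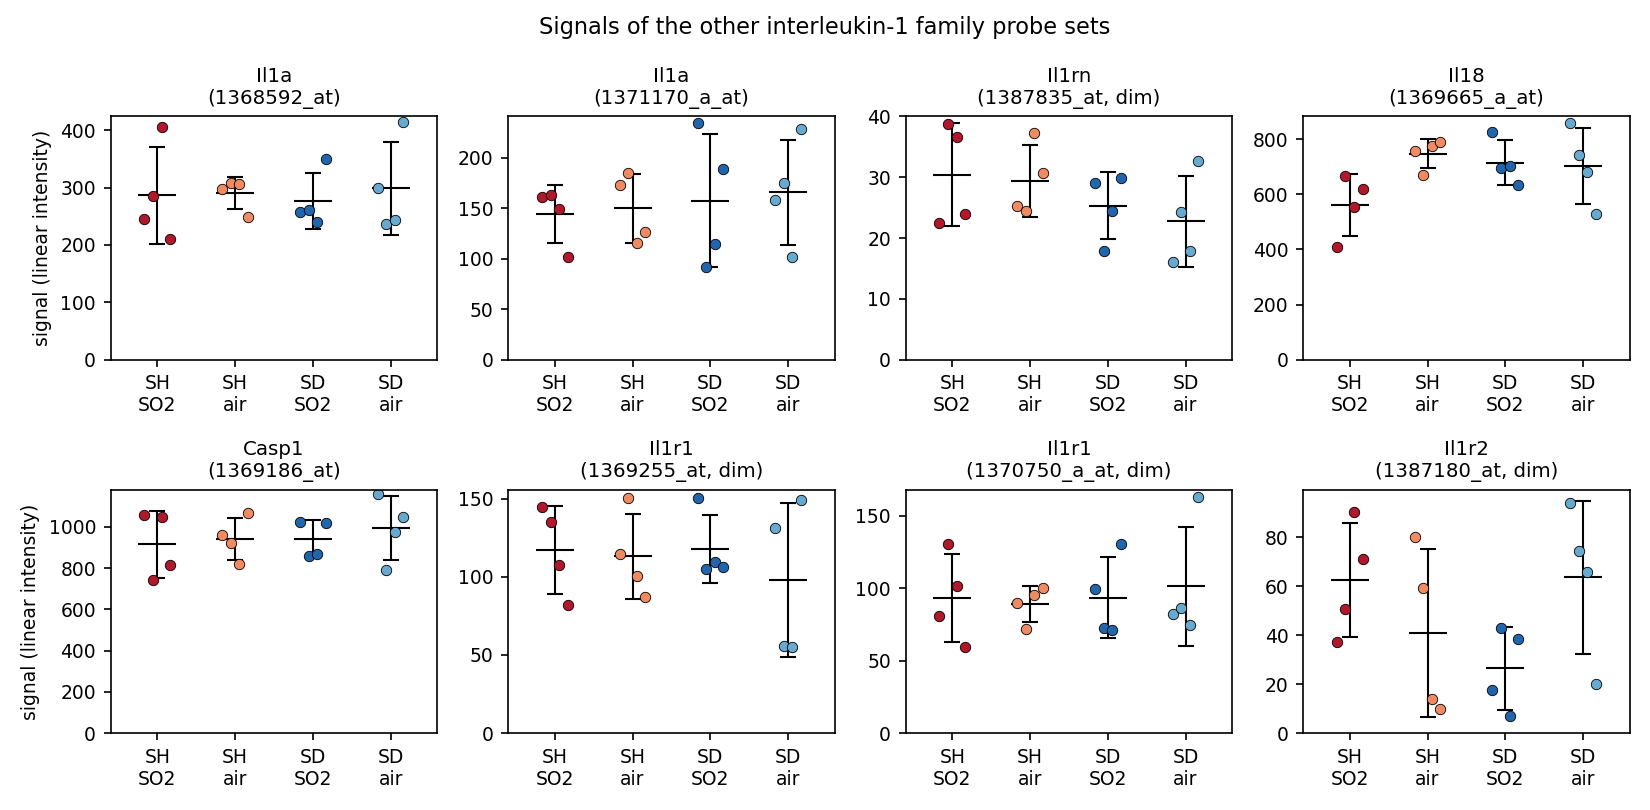
Signals (linear intensity, vertical axes) of the other 8 probe sets by group, 1 point per array, with bars for the mean ± standard deviation (n = 4). Il18 shows SH SO2 below SH air on every array, and the panels of Casp1, Il1a, Il1r1, Il1rn and Il1r2 show groups that overlap.

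**Figure D3:**
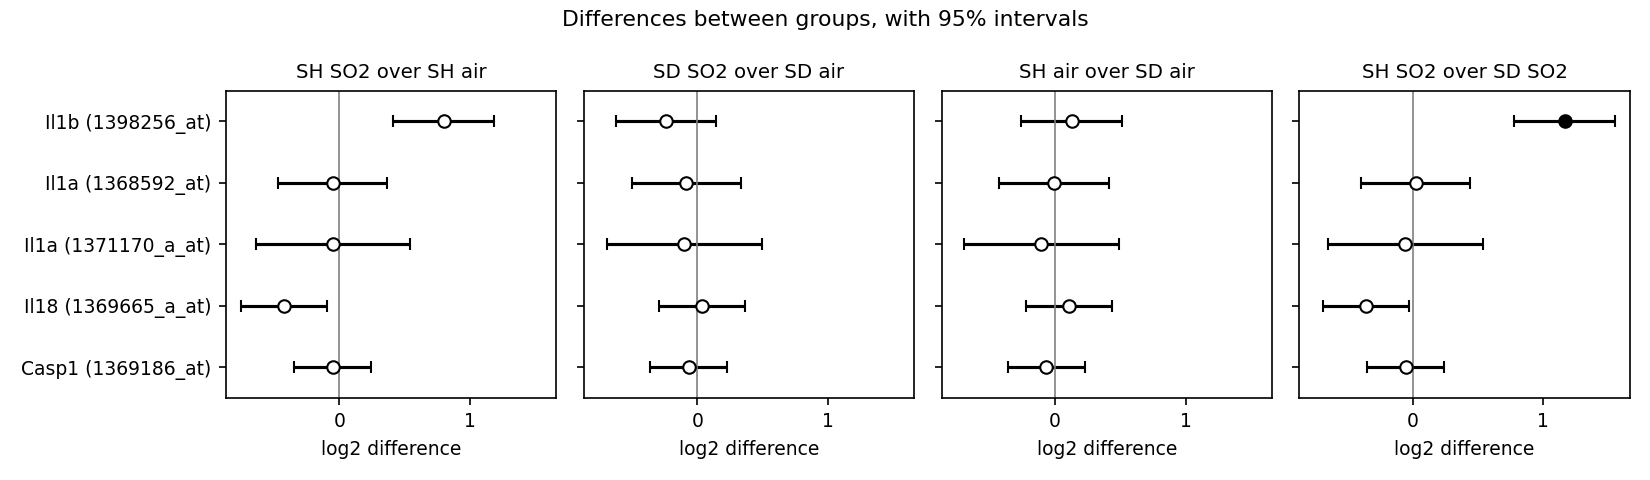
Log2 differences (horizontal axes) of the 5 tested probe sets in 4 comparisons, with 95% intervals. The 1 filled point, Il1b for SH over SD in SO2 at 1.16, passed the test, and open points did not.

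Over the 5 tested probe sets the median log2 difference was -0.052 for SO2 over air in SH rats, against 0.017 over all probe sets, and -0.083 in SD rats, against 0.017 (-0.17 against 0.0088 without SD air replicate 2). It was -0.053 for SH over SD in SO2, against 0.00042, and -0.0091 in air, against 0.00096 (-0.067 against -0.0098 without that array).

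The wider pathway was read through 4 lists of genes. Other interleukin-1 family ligands, receptors and inhibitors had 3 of 15 tested. Il33, the alarmin stored in the nucleus of barrier cells, averaged 2761 ± 254 in SH rats in SO2 and 2707 ± 577 in SH rats in air, and 3297 ± 241 in SD rats in SO2 and 2892 ± 245 in SD rats in air. Its log2 difference for SO2 over air was 0.048 in SH rats and 0.19 in SD rats (adjusted p = 0.720), where it was 0.14 without SD air replicate 2. Il18bp, which binds and blocks interleukin-18, stood at 0.19 in SH and -0.24 in SD rats (-0.35 without that array). Il1rl2, the receptor for interleukin-36, stood at 0.29 in SH and -0.12 in SD rats (-0.25 without that array). In any comparison 0 of the 3 passed, against at most 1.53% of all probe sets.

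Of the inflammasome, processing and release list, 11 of 21 genes were tested. For SH over SD averaged over exposures 1 passed, against 1.53% of all probe sets. In the other 6 comparisons 0 did, against at most 0.81% of all. P2rx4, the 1 that passed, an ATP-gated channel related to the P2rx7 channel that triggers inflammasomes, had signals of 1212.6, 908.4, 783.2 and 1090 in SH rats in SO2 and 756.6, 1129.5, 1054.2 and 1043.6 in SH rats in air. In SD rats it had 497.9, 575.1, 527.9 and 692.5 in SO2 and 553.9, 878.4, 619.8 and 439.2 in air, where the 878.4 is SD air replicate 2. Every SH array in SO2 and in air lay above every SD array in SO2. Between the strains in SO2, 5.58% of all probe sets had groups that did not overlap. Averaged over exposures it was 0.73 higher in SH rats (SE 0.132, limma adjusted p = 0.00485). It was 0.82 (adjusted p = 0.000443) without SD air replicate 2, a choice that favours differences between strains, and it then also passed in air. The call ended with the title number as a covariate (0.62, adjusted p = 0.0727). In SO2 alone it differed by 0.78 between strains (adjusted p = 0.0608).

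For SO2 over air, 0 of these 11 passed in either strain, as did 0% of all probe sets. P2rx7 itself stood at 0.39 in SH rats, from 128.4 to 281.3 in SO2 and 138.8 to 194.1 in air. Casp8, a protease that can also cut the interleukin-1 beta precursor, stood at 0.45 in SD rats, with 194, 171.5, 247.1 and 178.6 in SO2 and 123.4, 221.2, 144.7 and 93.6 in air (adjusted p = 0.605). The 221.2 is SD air replicate 2, the only air array of Casp8 within the range in SO2, and without it the difference was 0.65 (adjusted p = 0.443).

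Receptor-proximal signalling had 26 of 39 genes tested. For SH over SD averaged over exposures 1 passed, against 1.53% of all probe sets. In the other 6 comparisons 0 did, against at most 0.81% of all. Tab2, the adaptor that links ubiquitin chains to the kinase TAK1 below the receptor, was lower in SH rats, with a log2 difference of -0.43 averaged over exposures (SE 0.107, adjusted p = 0.0465). It averaged 883 ± 51.9 in SH rats in SO2, 835 ± 84.5 in SH rats in air, 1130 ± 195 in SD rats in SO2 and 1230 ± 249 in SD rats in air. It passed in 6 of 24 other settings, so the call is close to the threshold. Without SD air replicate 2, a choice that favours differences between strains, it was -0.51 (adjusted p = 0.00468) and it also passed in air. For SO2 over air the smallest p in SH rats belonged to Ikbkb, a kinase that releases NF-kB, which stood at -0.38. Its groups did not overlap (355.7 to 442.3 in SO2, 443.1 to 611.7 in air), as was so for 4.17% of all probe sets. Nfkbib, an inhibitor that holds NF-kB in the cytoplasm, stood at -0.25 in SH and -0.38 in SD rats (-0.46 without SD air replicate 2). For SO2 in either strain 0 of the 26 passed, as did 0% of all probe sets.

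Genes that interleukin-1 is known to induce had 22 of 39 tested, with 0 passing in any comparison, against at most 1.53% of all probe sets. For SO2 over air in SH rats, 4 were higher and 1 lower at an unadjusted p under 0.05. The shares of all probe sets in those directions were 2.44% and 2.4%. Of the 22, 11 stood above 0 in SH rats, and the median of the 22 was 0.0022, against 0.017 over all probe sets. In SD rats 0 were higher and 1 lower, against 4.41% and 3.83%, with the same counts without SD air replicate 2. Cxcl2, a chemokine that attracts neutrophils, had signals of 150.2, 296.6, 412.9 and 177.4 in SH rats in SO2, against 126.1, 131.3, 81.9 and 118.8 in SH rats in air. The groups did not overlap, as was so for 4.17% of all probe sets, and the log2 difference was 0.99 (SE 0.267, adjusted p = 0.585). In SD rats Cxcl2 stood at -0.060 (-0.13 without SD air replicate 2), from 136.2 to 158.9 in SO2 and from 124.3 to 216.9 in air.

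Ccl4, a chemokine that attracts monocytes and T cells, had 296.8, 275.2, 517 and 362.1 in SH rats in SO2, against 213.8, 286.4, 207 and 232.2 in SH rats in air (0.56, adjusted p = 0.949). Lcn2, an iron-binding protein of epithelium and neutrophils, was on the other side of 0 in SH rats, at -0.89 (adjusted p = 0.949). Cxcl1, a close relative of Cxcl2, had 311.2, 419.9, 508.9 and 459.6 in SD rats in SO2, against 911.5, 506.2, 921.3 and 817.7 in SD rats in air (-0.85, adjusted p = 0.440). In SH rats Cxcl1 stood at 0.24, and at -0.35 with the title number as a covariate. Without SD air replicate 2, the lowest of those 4 in SD air, the SD difference was -1.05 (adjusted p = 0.291). Vcam1, an adhesion protein of endothelium, stood at 0.31 in SD rats (adjusted p = 0.607), and at 0.35 (adjusted p = 0.604) without that array. With all arrays its SD groups did not overlap, as was so for 3.54% of all probe sets.

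**Figure D4:**
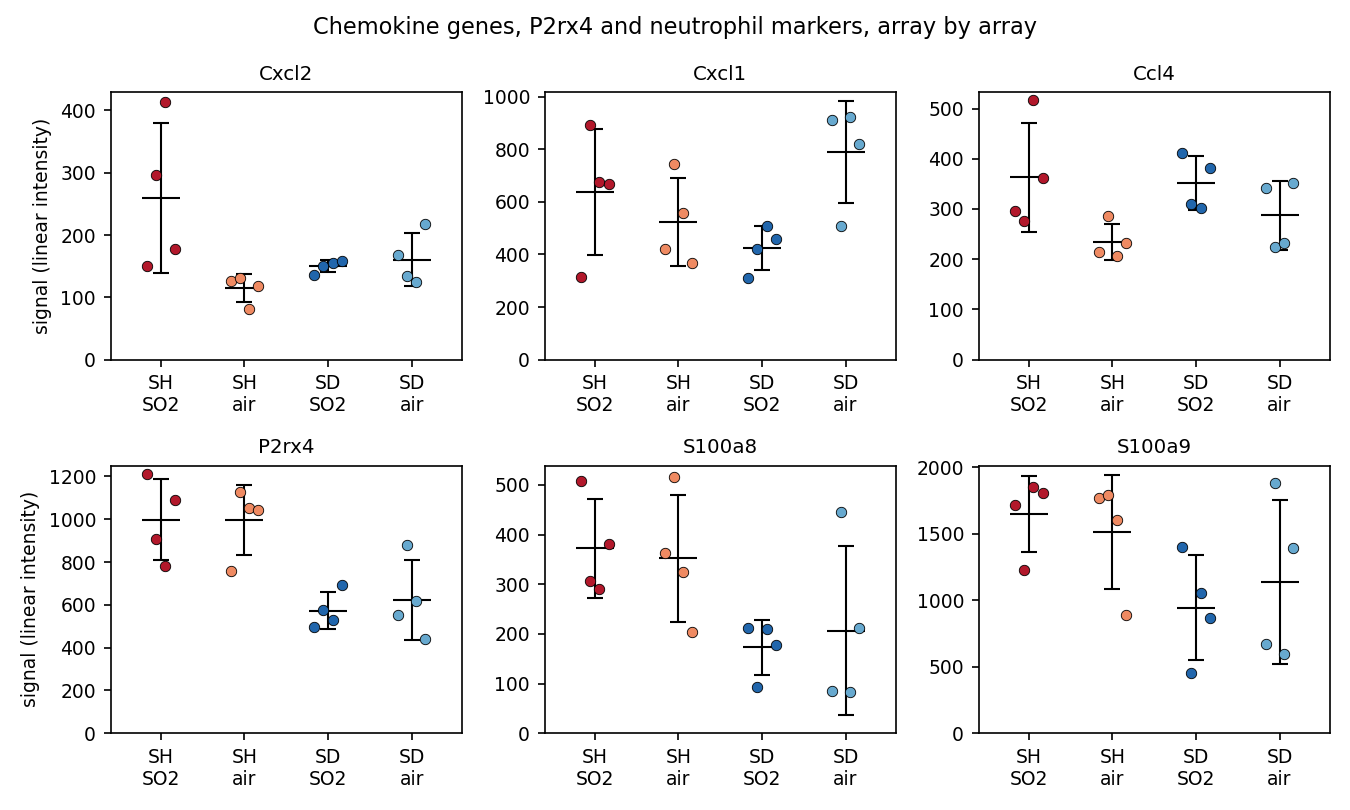
Signals (linear intensity, vertical axes) of the chemokine genes Cxcl2, Cxcl1 and Ccl4, the channel gene P2rx4 and the neutrophil markers S100a8 and S100a9 by group, 1 point per array, with bars for the mean ± standard deviation (n = 4). P2rx4 separates SH from SD rats in SO2, and in S100a8 and S100a9 the highest SD air point is replicate 2.

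The genes whose log2 values followed Il1b most closely over the 16 arrays, out of 9366 named probe sets compared, were Timp3 (Pearson r 0.85), Zfhx3 (0.84), Mlc1 (0.82), Pla1a (0.78) and Thbd (0.78). With group means removed, the r of these 5 with Il1b was 0.52, 0.47, 0.48, 0.26 and 0.28. Timp3, a tissue inhibitor of metalloproteinases, averaged 9442 in SH rats in SO2, 7236 in SH rats in air, 6220 in SD rats in SO2 and 6064 in SD rats in air. Mlc1 averaged 373 in SH rats in SO2, 262 in SH rats in air, 142 in SD rats in SO2 and 179 in SD rats in air. All 5 were thus less like Il1b within groups than over all arrays. They were picked for their r with Il1b over these same arrays, so a likeness of group means follows from that choice.

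For Il18 the closest were Polr2i (0.87), Coq3 (0.83) and Capg (0.82), and with group means removed these were 0.83, 0.81 and 0.71. Capg, an actin-capping protein of macrophages, averaged 613 in SH rats in SO2 and 927 in SH rats in air. It averaged 971 in SD rats in SO2 and 945 in SD rats in air. Capg was picked for its r with Il18 over these same arrays, so a shared lowest group follows from that choice. For Casp1 the closest were Tgoln2 (0.79), Limd1 (0.79) and Ramp1 (0.78), and for Il1a they were Zfp341 (0.92), Ctsl (0.86) and Adcy4 (0.85). These points share arrays and their scaling, so the r values are descriptions. The r with these genes, without SD air replicate 2, was 0.78 to 0.85 for Il1b, 0.82 to 0.88 for Il18, 0.75 to 0.76 for Casp1 and 0.84 to 0.91 for Il1a.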

How the data were processed

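Rat lung total RNA was measured on 16 arrays in 4 groups of 4. The authors deposited 1 linear intensity per probe set and array. Per the submitters' processing notes the software was GCOS; the sources used here name neither a version nor an algorithm. Trimmed array means (2% left out at each end) were 500.099 to 500.111, and no further scaling was applied. The number of arrays limits the precision.

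Of 15923 probe sets, 57 controls and the dimmest 30% by mean log2 value were left out, which left 11106. Values were log2(intensity + 16), an offset that understates changes of dim probe sets. Tests used limma 3.58.1 in R 4.3.3 (1 mean per group, eBayes with a trend, 12 residual degrees of freedom), with Benjamini-Hochberg adjustment over all 11106 probe sets and a threshold of 0.05. The 7 comparisons and their 25 other settings were run alike, and the fits were tested on simulated data. Figures used matplotlib 3.10.9 in Python 3.11.15.

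Symbols came from the platform annotation. The named genes are all 7 members, any gene of a wider list that passed, up to 3 genes of smallest p per list for SO2 in each strain (not every one is described), the 6 neutrophil markers tested, and the genes most like each member (3, or 5 for Il1b). Cd14, Cd68 and Gpnmb were chosen after their values were seen, as were the neutrophil markers other than S100a8 and S100a9. The members and lists were chosen with earlier results of these data known. P-values measure the spread between animals only as far as the labelled biological replicates are separate animals.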

Additional observations from a re-analysis of the deposited data

Results flagged for a closer look

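Of 36 sets of 4 arrays (9 probe sets in 4 groups), 3 held an array whose gap to the nearest other exceeded Dixon's 95% critical share of the range, and chance alone gives about 1 in 20. The Il1a probe set 1368592_at read 249.5 on SH air replicate 4, against 297 to 307.7 on the other 3. The Il1r1 probe set 1369255_at read 150.5 on SD SO2 replicate 1, against 105 to 109.5, and the Il1r1 probe set 1370750_a_at read 162.6 on SD air replicate 4, against 74.9 to 86. None of these arrays is SD air replicate 2.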

How the results depend on the processing

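Il1b for SH over SD in SO2 stayed between 1.01 and 1.27 and passed in 25 of 25 other settings (adjusted p 0.00162 to 0.0127). For SH over SD averaged over exposures it passed in 23 of 24, and the member count was 0 with the title number as a covariate, against 1 otherwise. For SO2 over air in SH rats it lay between 0.64 (without SH SO2 replicate 3) and 0.93 and passed in 0 of 25. The replicate numbers follow the order of the sample titles within each group, so a check on them could not show whether animals were paired. Same-numbered deviations correlated at -0.023 to 0.15, and 4 of 16 arrays correlated best with their own number. The replicate block kept both Il1b calls (adjusted p 0.00669 in SO2 and 0.0234 averaged) and ended that of Tab2 (0.0840). Over all probe sets, SH over SD in air had 0 calls and 86 without SD air replicate 2. SO2 over air had 0 calls and in other settings up to 1 in SH rats, 3 in SD rats and 11 averaged. SH over SD had 90 in SO2 (50 to 137 in other settings) and 170 averaged (56 to 276). Some differences changed sign, none of them past the threshold, and the largest size with the opposite sign was 0.35 (Cxcl1, SO2 in SH). With arrays left out, the Il1a probe set 1368592_at ran from -0.23 to 0.073 (SO2 in SH), -0.19 to 0.079 (SO2 in SD), -0.14 to 0.16 (interaction), -0.15 to 0.013 (SO2, both strains), -0.10 to 0.15 (SH over SD, air), -0.15 to 0.15 (SH over SD, SO2) and -0.081 to 0.086 (SH over SD, both). The Il1a probe set 1371170_a_at ran, in that order, from -0.15 to 0.092, -0.30 to 0.10, -0.15 to 0.25, -0.18 to 0.026, -0.30 to 0.052, -0.26 to 0.15 and -0.18 to 0.020. Casp1 ran from -0.13 to 0.042 (SO2 in SH), -0.17 to 0.012 (SO2 in SD), -0.064 to 0.12 (interaction), -0.17 to 0.011 (air) and -0.13 to 0.040 (SO2, strains). Il18 ran from -0.090 to 0.14 (SO2 in SD) and -0.022 to 0.21 (air), Il1b from -0.0082 to 0.25 (air), and for SO2 in SH rats Il33 from -0.070 to 0.16, S100a8 from -0.11 to 0.31, S100a9 from -0.076 to 0.29 and Fcgr3a from -0.11 to 0.016. Cxcl2 in SD rats ran from -0.16 to 0.082. Adding the title number as a covariate also turned the sign for Il1a 1371170_a_at (0.16 for SO2 in SH, 0.014 for both strains), Casp1 (0.0092, SO2 in SH), Il1a 1368592_at (-0.22 interaction, 0.21 air, -0.017 SO2, strains), Capn2, a protease gene of the inflammasome list (-0.010, SO2 in SH), Fcgr3a (0.25, SO2 in SH) and Cxcl1 (-0.35, SO2 in SH). With the 10th percentile and actin ratio as covariates it turned for Il1a 1368592_at (-0.075 interaction, 0.072 air, -0.0025 SO2, strains), Il1a 1371170_a_at (-0.096 interaction), Casp1 (-0.024 interaction), Il33 (-0.062, SO2 in SH) and Fcgr3a (0.064, SO2 in SH), and with quantile normalization for Il1a 1371170_a_at (-0.0036 interaction). The cause of these turns was not tested.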
